A study of Durio zibethinus with 9 samples.

Results

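The genes described here are 4 durian (Durio zibethinus) genes for making and breaking down starch, taken by their LOC numbers from the 39453 genes detected in any library. The paper that reported the data gives their products. LOC111316856 is a glucose-1-phosphate adenylyltransferase large subunit 1-like gene, LOC111291600 a branching enzyme 1-like gene, LOC111314672 a branching enzyme 2-1-like gene and LOC111305012 a beta-amylase 3-like gene. The study had itself picked all 4 from these samples, so their directions are no independent evidence. Whether they match the directions given by the study is not reported here.

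Pulp of durian var. D24 was taken at 3 stages, with 3 libraries each. These were young pulp (YS) at 90 days, mature pulp (MS) at 120 days and ripening pulp (RS) at 127 days after flowering. RS pulp came from mature fruit left to ripen at room temperature. No treatment is named for any stage in the sources used here. The study calls the libraries biological replicates, but which trees or fruits they came from is not given in the sources used here, so a p-value here reflects the variation among the libraries alone, which may be technical.

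Starch is stored in plastids. Glucose-1-phosphate adenylyltransferase makes ADP-glucose, the sugar donor for starch chains, and in plants is built of large and small subunits. Branching enzymes cut a growing chain and rejoin the piece as a side branch. Beta-amylases release maltose from the ends of the chains. In Arabidopsis, beta-amylase 3 is a plastid enzyme of leaf starch breakdown at night. Stored starch of fleshy fruit is commonly turned into sugar at ripening.

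The values are FPKM, which are fragments per kilobase of transcript scaled to the mapped fragments of a library. Mapped bases were 2.62 to 3.55 Gb in YS, 2.69 to 3.02 Gb in MS and 2.35 to 2.76 Gb in RS libraries. MS libraries were close to each other, with an SD of the log2 ratio between any pair of 0.123 to 0.127 over genes reaching 10 FPKM in both, against 0.791 to 0.939 between YS libraries. RS libraries 01 and 02 were also close, at 0.151, and stood at 0.614 and 0.597 from RS library 03. A fit of RS against MS without RS library 03 thus rests on close libraries at both stages, whose spread may be technical. RS library 03 stood apart. In it 15171 genes reached 1 FPKM, while 19471 and 19614 did so in RS libraries 02 and 01, and 26.3% of its FPKM lay in its 10 highest genes. A polygalacturonase-like gene taken as the marker of ripe pulp, LOC111311521, was at 41.2 FPKM in RS library 03 and at 1320 and 1341 FPKM in the other RS libraries, so this library went partly against its label. In MS pulp this marker was at 1.26 to 1.88 FPKM.

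The genes of starch synthesis were highest in mature pulp, and the beta-amylase 3-like gene was lowest there. The adenylyltransferase large subunit and both branching enzyme genes rose in mature relative to young pulp, by 4.32-fold to 7.05-fold on the stage means. At the ripening stage the mean FPKM of these 3 genes, as deposited, was 0.318 to 0.340 times that of mature pulp. Of all tested genes, 47.6% were lower in every RS library than in every MS library. The falls of all 3 genes were smaller with FPKM divided by size factors. The adenylyltransferase gene was then at 35.0 to 42.9 FPKM in RS and 84.8 to 88.1 FPKM in MS. The beta-amylase 3-like gene was listed at a trace in 1 MS library and was present in all RS libraries. In bulk pulp, fewer cells of a kind and less RNA per cell cannot be told apart.

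**Figure D1:**
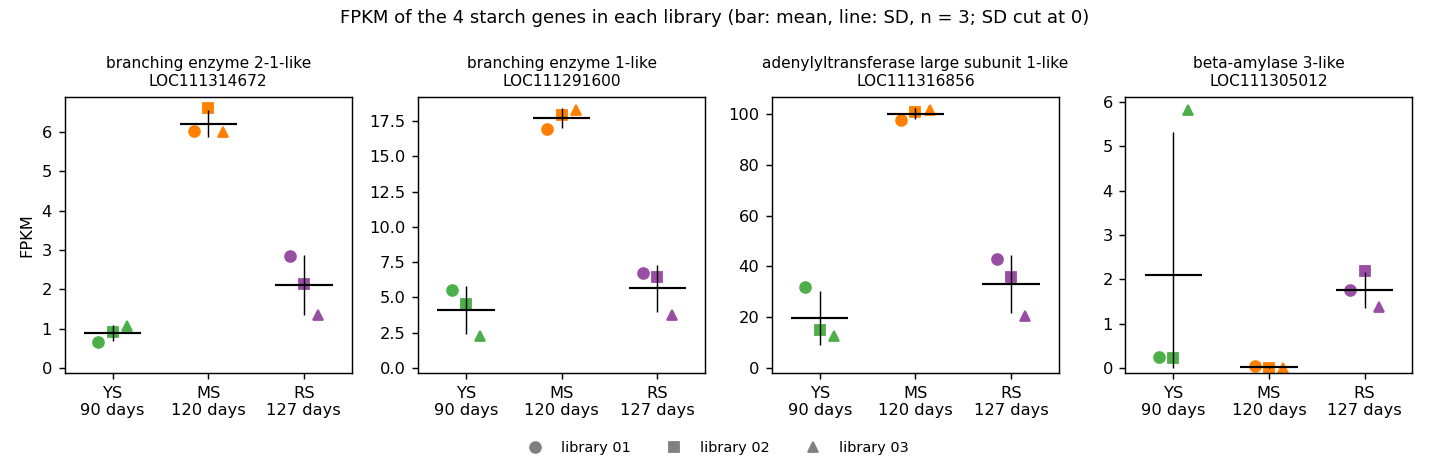
FPKM of the 4 starch genes in each of the 9 libraries, with stages ordered from 90 to 127 days (points: libraries, bar: mean, line: SD, n = 3 each, a gene absent from a table drawn at 0). The 3 synthesis genes peak in all MS libraries, while the beta-amylase 3-like gene is at 0.0394 FPKM or 0 there and at 5.83 FPKM in YS library 03.

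The adenylyltransferase large subunit gene LOC111316856 was the most abundant of the 4. It lies on the plus strand of RefSeq scaffold NW_019167960.1, from 9302267 to 9308203. Libraries 01, 02 and 03 had 31.9, 14.9 and 12.5 FPKM in YS, 97.9, 101.1 and 101.8 FPKM in MS, and 42.8, 36.0 and 20.5 FPKM in RS. No MS library overlapped a YS or an RS library. In FPKM as deposited YS and RS overlapped, through RS library 03. After division by size factors RS had 35.0 to 42.9 FPKM and YS 11.3 to 29.7 FPKM, without overlap. In MS it stood above 97.1% to 97.3% of the listed genes.

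In mature pulp this gene averaged 100.3 ± 2.06 FPKM, against 19.8 ± 10.6 FPKM in young pulp (SD, n = 3 each), a 5.07-fold difference. On the scale of log2(FPKM + 1), on which all fold changes below are given and which understates changes of low genes, it rose by 2.40 (SE 0.34, adjusted p = 0.00279 by limma). A gene was called where the change was beyond 1.5 in size with an adjusted p under 0.05 over 21598 tested genes. In ripening pulp it averaged 33.1 ± 11.4 FPKM, and relative to mature pulp it fell by 1.63 (SE 0.28, adjusted p = 0.00674). With FPKM divided by size factors, the change of RS against MS was -1.12, and without RS library 03 it was -1.33, and neither was called. Between RS and YS the difference of 0.77 did not pass (SE 0.45, adjusted p = 0.275). With size factors it was 1.24 (SE 0.38, adjusted p = 0.0528 by limma), which was not called.

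The branching enzyme 1-like gene LOC111291600, on the plus strand of scaffold NW_019168426.1 from 6282 to 24482, was next in abundance. Another durian assembly annotates it as a transcribed pseudogene, and whether its reads were shared with a second copy was not tested. It had 5.54, 4.50 and 2.27 FPKM in YS, 16.9, 18.0 and 18.3 FPKM in MS, and 6.73, 6.43 and 3.74 FPKM in RS libraries 01, 02 and 03. Again all MS libraries lay above all others. In FPKM as deposited YS and RS overlapped, through RS library 03. After division by size factors RS had 6.26 to 7.82 FPKM and YS 2.06 to 5.15 FPKM, without overlap.

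The gene averaged 17.7 ± 0.701 FPKM in MS and 4.10 ± 1.67 FPKM in YS (SD, n = 3 each), and rose by 1.93 on the log2 scale (SE 0.28, adjusted p = 0.00292). It averaged 5.63 ± 1.64 FPKM in RS, and fell by 1.53 relative to MS (SE 0.23, adjusted p = 0.00419). That change lies next to the threshold of 1.5. It was -1.07 with size factors and -1.30 without RS library 03, and in both it was not called. RS against YS gave 0.40 (SE 0.40, adjusted p = 0.529), which did not pass. With size factors it gave 0.80, which was not called either.

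The branching enzyme 2-1-like gene LOC111314672 was the least abundant synthesis gene. It lies on the plus strand of scaffold NW_019167938.1 from 15505567 to 15524846. Libraries 01, 02 and 03 had 0.669, 0.904 and 1.07 FPKM in YS, 6.02, 6.61 and 6.01 FPKM in MS, and 2.85, 2.15 and 1.33 FPKM in RS. None of the 3 stages overlapped another, with MS highest, RS between and YS lowest.

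Its mean was 6.21 ± 0.343 FPKM in MS, against 0.881 ± 0.202 FPKM in YS (SD, n = 3 each), a ratio of 7.05, and it rose by 1.94 on the log2 scale (SE 0.17, adjusted p = 0.000571). At the ripening stage it averaged 2.11 ± 0.760 FPKM. Relative to MS the log2 difference was -1.24 (SE 0.22, adjusted p = 0.00782), which was within the fold threshold, so the gene was not called. Relative to YS it was 0.70 (SE 0.35, adjusted p = 0.201). With size factors the difference from YS was 0.99 (SE 0.24, adjusted p = 0.0255 by limma), within the fold threshold and not called. Coverage of this gene was 1.75 to 3.80 reads per base in YS, 17.7 to 17.9 in MS and 3.13 to 5.78 in RS. In RS library 01 its coverage corresponded to 2.10 FPKM, below the 2.85 FPKM deposited. With rescaled coverage in place of FPKM, RS against MS gave -1.34 and RS against YS 0.60, neither called.

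The beta-amylase 3-like gene LOC111305012 lies on the plus strand of scaffold NW_019167827.1 from 1121155 to 1124146. It had 0.245, 0.220 and 5.83 FPKM in YS libraries 01, 02 and 03. In MS it had 0.0394 FPKM in library 01, was not listed for libraries 02 and 03 and was set to 0 there. It had 1.76, 2.18 and 1.37 FPKM in RS libraries. All RS libraries lay above all MS libraries, and YS library 03 lay above every other library, RS included.

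RS against MS differed by 1.44 on the log2 scale (SE 0.18, adjusted p = 0.00205), just within the fold threshold. With size factors the difference was 1.65 and without RS library 03 it was 1.55, both called as higher. MS against YS gave -1.11 (SE 0.65, adjusted p = 0.213), and without YS library 03 it gave -0.28. RS against YS gave 0.33 (SE 0.61, adjusted p = 0.753), with the sign resting on single libraries. No ratio of means against MS is given, since the gene was at 0 in most MS libraries. It reached an FPKM of 1 in 4 of 9 libraries, and its coverage in YS libraries 01 and 02 was below 1 read per base, at 0.641 and 0.700.

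**Figure D2:**
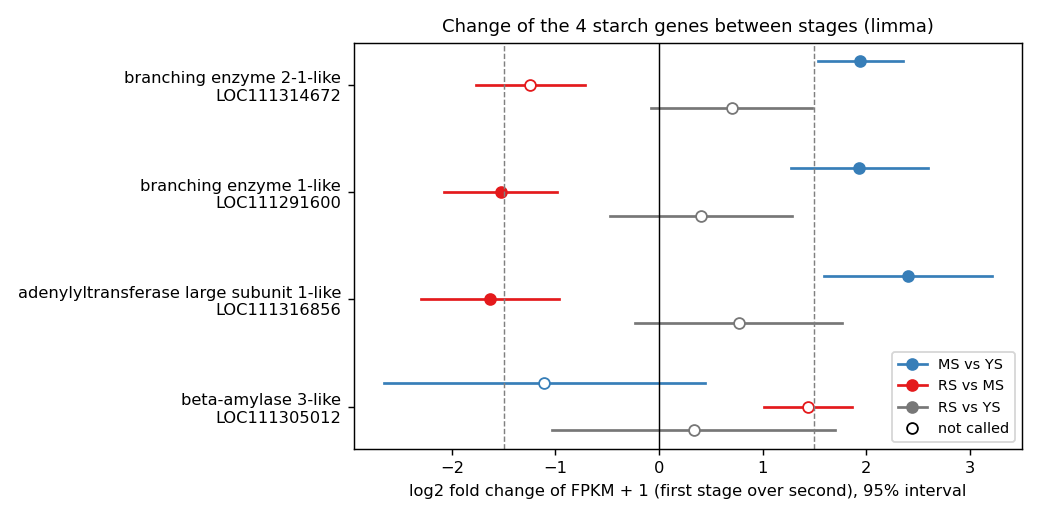
Log2 fold change of the 4 starch genes in each comparison on log2(FPKM + 1), with the 95% confidence interval of the limma fit on 6 libraries. MS against YS lies beyond 1.5 for the 3 synthesis genes, and RS against MS is below 0 for them and 1.44 for the beta-amylase 3-like gene.

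All 4 genes passed the filter on low values. The beta-amylase 3-like gene did so only through the RS libraries, where it was high against MS, and YS library 03. Its place among genes higher in RS than in MS is thus not independent of the filter. From young to mature pulp 3 of 4 were called higher, against 5.43% of all tested genes, and none was called lower, against 10.2% (15.7% in either direction). The 3 synthesis genes were above every YS library in all MS libraries, as were 31.3% of tested genes, and the beta-amylase 3-like gene was below, as were 27.2%. The median change was 1.94 over the 4 genes and 0.06 over all tested genes.

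From mature to ripening pulp 2 of 4 genes were called lower, against 5.26% of all tested genes, and none was called higher, against 3.95% (9.21% in either direction). All 3 synthesis genes were lower without overlap, which held for 47.6% of tested genes, and the beta-amylase 3-like gene was higher without overlap, as were 13.4%. The median change was -1.39 over the 4 genes and -0.40 over all tested genes, and with size factors that of all tested genes was -0.02. Over all tested genes, 853 were called higher and 1136 lower, and with size factors 1389 higher and 485 lower. The size factor of RS library 03 was 0.479, while those of the others were 1.03 to 1.21. Whether the shift comes from this library was not tested. Divided by size factors, the adenylyltransferase gene had 40.8, 35.0 and 42.9 FPKM in RS, against 84.8, 87.5 and 88.1 FPKM in MS. Its RS and MS libraries did not overlap at either scaling, while its call was lost with size factors, as was that of the branching enzyme 1-like gene, and the beta-amylase 3-like gene gained one.

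**Figure D3:**
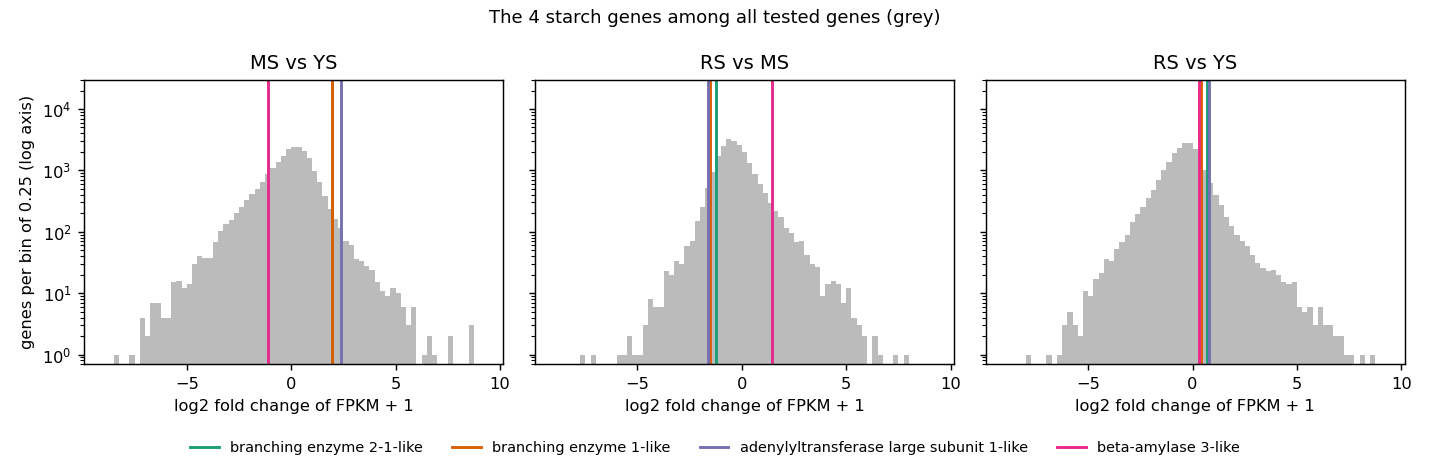
Distribution of the log2 fold changes of 21598 tested genes in each comparison (grey, number of genes per bin), with the 4 starch genes as lines. In MS against YS both branching enzyme genes, at 1.93 and 1.94, overlie each other, and in RS against MS the synthesis genes lie below the median of -0.40.

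From young to ripening pulp none of the 4 genes was called by limma, against 2.89% of tested genes called higher and 9.36% called lower (12.3% in either direction). At an unadjusted p under 0.05 the count was also 0, against 31.2% of tested genes. In FPKM as deposited, the branching enzyme 2-1-like gene alone was higher in every RS library than in every YS library. This held for 8.78% of tested genes. None was lower in every RS library, as were 29.1%. After division by size factors all 3 synthesis genes were higher in every RS library than in every YS library. The share of tested genes at that scaling was not counted, and none of the 4 genes was called. The median change was 0.55 over the 4 genes and -0.35 over all tested genes. With size factors that of all tested genes was 0.0056.

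The closeness of the MS libraries bears on every comparison with that stage. The mean of the MS libraries was also entered as 1 sample in a fit of all stages. The spread then came from the YS and RS libraries alone, and the MS sample was assumed to vary like them. The log2 changes of the 4 starch genes were the same to 2 decimals and the errors were larger. For the adenylyltransferase gene in MS against YS the SE was 0.63. It was 0.34 in the fit of that pair and 0.37 in 1 fit of all 9 libraries without averaging. Part of the increase in SE is fixed by entering MS as 1 sample. MS against YS gave adjusted p = 0.0637 for the adenylyltransferase gene, 0.0832 for the branching enzyme 1-like gene and 0.0560 for the branching enzyme 2-1-like gene. RS against MS then gave adjusted p = 0.329 for the adenylyltransferase gene and 0.301 for the branching enzyme 1-like gene, and 0.337 and 0.490 for the branching enzyme 2-1-like and beta-amylase 3-like genes. None of these passed.

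**Figure D4:**
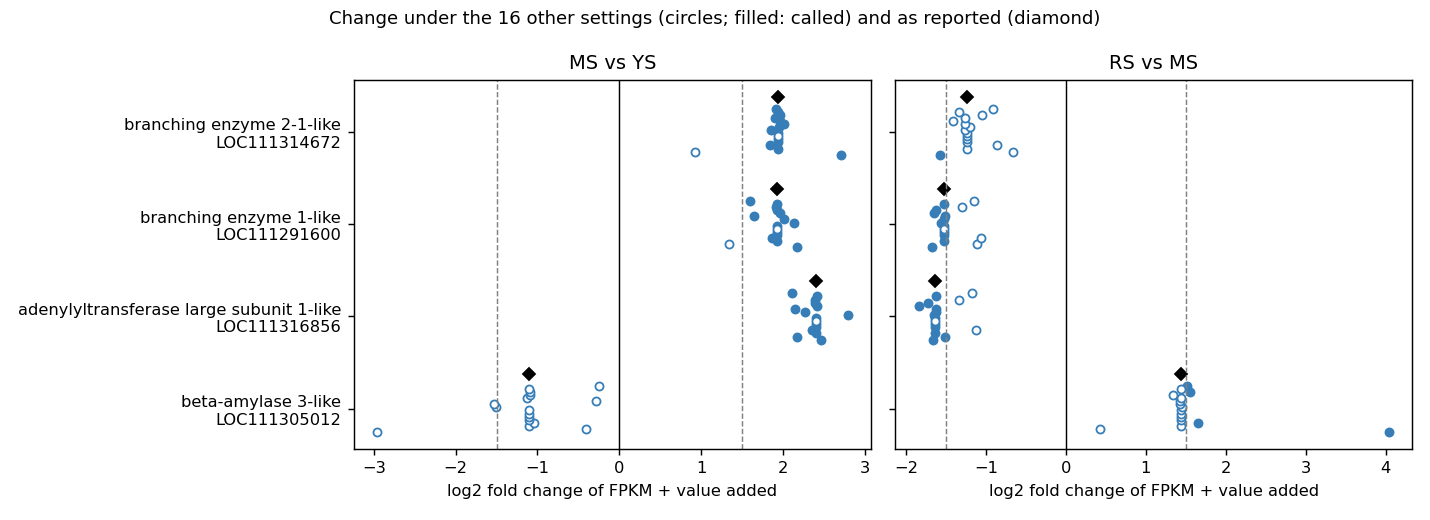
Log2 fold change of the 4 starch genes in MS against YS and RS against MS, as reported (diamonds) and under 16 other settings (circles, filled where called). The 3 synthesis genes keep a positive sign in MS against YS and a negative sign in RS against MS, and the beta-amylase 3-like gene the opposite, with 4.04 in RS against MS where 0.1 was added.

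The ratio of FPKM between a pair of genes within a library does not depend on how that library is scaled. The branching enzyme 1-like gene exceeded the 2-1-like gene by 8.28, 4.98 and 2.12-fold in YS, 2.81, 2.72 and 3.04-fold in MS, and 2.36, 3.00 and 2.81-fold in RS. YS libraries lay on both sides of the MS libraries. The test used the log2 ratio with 1 added to each FPKM, which does depend on scaling. It differed by -0.01 in MS against YS (exact permutation test, two-sided, p = 1), with -0.53 at 0.1 added and 0.41 at 5 added, so its sign went with the value added. For RS against MS the FPKM ratios overlapped. With 1 added the difference was -0.29 (exact permutation test, p = 0.1, adjusted over 6 tests 0.2), and with 0.1 added it was -0.11. This exact test of 3 libraries against 3 cannot go below p = 0.1. The 2-1-like gene in RS library 01 had 2.85 FPKM as deposited but 2.10 FPKM from its coverage. The ratio was not tested on coverage.

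FPKM of the beta-amylase 3-like gene was 0.767%, 1.48% and 46.8% of that of the adenylyltransferase gene in YS libraries 01, 02 and 03. It was 0.0402% in MS library 01 and 4.11%, 6.06% and 6.65% in RS libraries. RS lay above MS in every library, with a difference of 3.07 in the log2 ratio with 1 added (exact permutation test, p = 0.1, adjusted p = 0.2). MS against YS gave -3.51, also without overlap (exact permutation test, p = 0.1, adjusted p = 0.2), and -2.43 without YS library 03. With the beta-amylase 3-like gene at or near 0 in MS, the MS log2 ratio is set almost wholly by the adenylyltransferase gene. That gene alone rose by 2.15 in MS against YS without YS library 03, so the ratio largely restates its rise. RS against YS gave -0.44 (exact permutation test, p = 0.9), and YS library 03 was far above the other YS libraries. The FPKM of the 3 synthesis genes summed to 38.2, 20.3 and 15.8 in YS, 121, 126 and 126 in MS, and 52.3, 44.6 and 25.6 in RS.

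The study names 4 further genes that act on starch or its products. From young to mature pulp 1 of the 4 was called lower, against 10.2% of all tested genes, and none higher. From mature to ripening pulp none was called, while 3 had an unadjusted p under 0.05, as did 48.3% of all tested genes. From young to ripening pulp 1 was called lower, against 9.36% of all tested genes.

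The beta-amylase 1-like gene LOC111279622 had 168, 28.9 and 48.5 FPKM in YS, 5.43, 4.98 and 4.14 FPKM in MS, and 17.2, 18.5 and 10.1 FPKM in RS. Like the beta-amylase 3-like gene, it was lowest in all MS libraries. It fell by 3.44 in MS against YS (SE 0.59, adjusted p = 0.00545). RS against MS gave 1.44 (SE 0.26, adjusted p = 0.00764), within the fold threshold, and 1.69 without RS library 03, which was called. RS against YS gave -2.00 (SE 0.59, adjusted p = 0.0456), and this call was lost in 12 of 16 other settings.

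A second beta-amylase 1-like gene, LOC111306779, was higher than the first in every MS and RS library, while in YS library 03 it was lower. It had 236, 83.0 and 35.9 FPKM in YS, 107, 107 and 105 FPKM in MS, and 169.8, 166.9 and 272 FPKM in RS. All RS libraries lay above all MS libraries, with a log2 difference of 0.89 (adjusted p = 0.0271) that was within the fold threshold. RS against YS gave 1.14 (adjusted p = 0.229), with 1.84 without YS library 01, which was called, and 0.49 without YS library 03 (adjusted p = 0.577).

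The alpha-amylase-like gene LOC111312611, whose enzyme class cuts within starch chains, had 2.57, 3.04 and 37.1 FPKM in YS, 3.67, 4.34 and 3.97 FPKM in MS, and 18.6, 18.5 and 1.72 FPKM in RS. YS library 03 was the highest of all 9 here too, as for the beta-amylase 3-like gene, and RS library 03 was the lowest in FPKM as deposited. No comparison passed. Without RS library 03, RS against MS gave 1.97 and was called.

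DPE2, a glucanotransferase that in Arabidopsis acts on maltose in the cytosol, is LOC111293942. It had 61.1, 36.4 and 38.1 FPKM in YS, 107.9, 107.1 and 106.3 FPKM in MS, and 70.8, 67.7 and 86.0 FPKM in RS. In FPKM as deposited it was highest in all MS libraries. Divided by size factors it was at 179.5 FPKM in RS library 03, against 91.9 to 93.4 FPKM in MS, so RS and MS then overlapped. MS against YS gave 1.27 (SE 0.24, adjusted p = 0.00723), within the fold threshold. RS against MS gave -0.52 (adjusted p = 0.0540), and with size factors 0.0031.

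**Figure D5:**
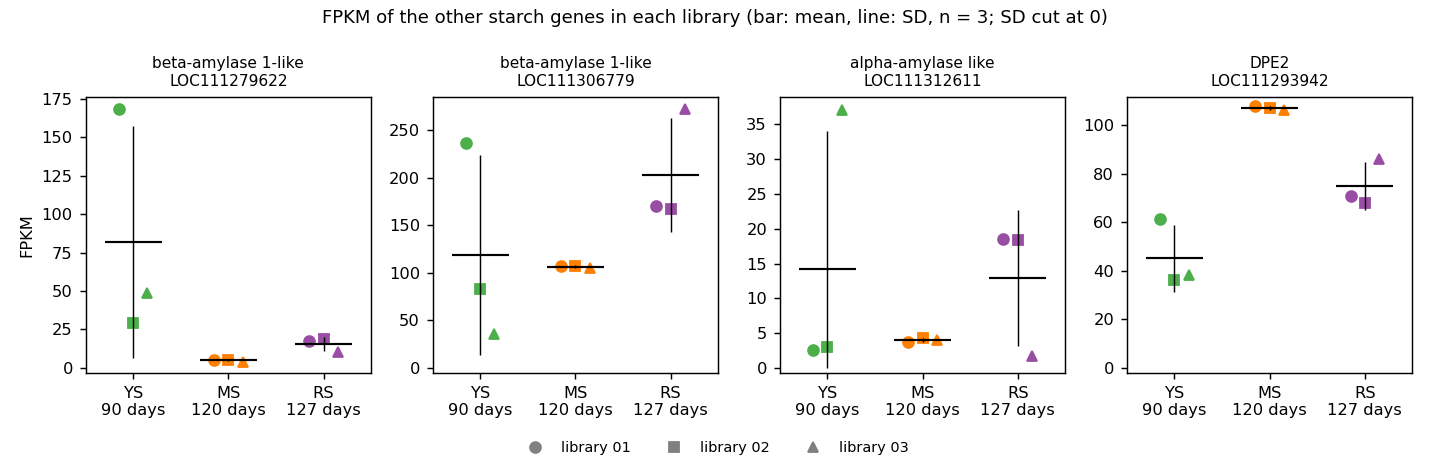
FPKM of the 4 further starch genes in each of the 9 libraries, with stages ordered from 90 to 127 days (points: libraries, bar: mean, line: SD, n = 3 each). LOC111279622 is lowest in all MS libraries, DPE2 is highest there in FPKM as deposited, and the alpha-amylase-like gene reaches 37.1 FPKM in YS library 03 alone.

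Each table also holds loci assembled anew from the reads of that library, which draw on the same reads as the gene values. On the strand of the adenylyltransferase gene these loci had 13.0 to 35.4 FPKM in YS, 117 to 148 FPKM in MS and 21.6 to 61.2 FPKM in RS. The loci of all 3 MS libraries and of 2 RS libraries ran 51743 to 77474 bases past the end of the gene, and no YS locus did, so these values do not cover the same sequence across stages. For the branching enzyme 1-like gene, where no locus ran more than 1000 bases past the end, they had 3.95 to 10.04 FPKM in YS, 32.2 to 34.5 FPKM in MS and 7.42 to 12.8 FPKM in RS. MS was highest there, as in the reference gene values. The branching enzyme 2-1-like gene had such a locus in all MS libraries, at 8.64 to 13.5 FPKM, and in all RS libraries, at 4.17 to 4.35 FPKM. In YS only library 03 had one, which ran 5767 bases past the end. The beta-amylase 3-like gene had such a locus in all 3 RS libraries, in YS library 03 and in no MS library. In RS library 01 it was in pieces, over 31.25% and 36.8% of the gene. No other reference gene overlapped any of the 4.

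Over the 9 libraries, which share the stage differences, the log2 values of the 3 synthesis genes correlated with each other at Pearson r of 0.92 to 0.98. The beta-amylase 3-like gene had r of -0.48, -0.75 and -0.65 with the branching enzyme 2-1-like, branching enzyme 1-like and adenylyltransferase genes. The tested gene most like the adenylyltransferase gene was LOC111296869 (r = 0.995). For the branching enzyme 1-like gene it was LOC111282410 (r = 0.994), and for the 2-1-like gene LOC111286750 (r = 0.996). Between 323 and 366 tested genes had r above 0.95 with each synthesis gene, and 16 with the beta-amylase 3-like gene, whose closest gene was LOC111317182 (r = 0.988).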

How the data were processed

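Poly(A) RNA libraries of durian pulp were sequenced as paired ends. The authors made 1 StringTie table per library. The submitters' processing notes list Bowtie, TopHat, FastQC and Trimmomatic while the paper has HISAT2 ahead of StringTie, so the mapper behind the values is not settled, and the genome build is not given in the sources used here. The FPKM values deposited by the authors were tested. The deposited coverage (signal) column is the mean read depth per base, and its ratio to FPKM, within 1% for 81.5% to 84.2% of genes, gave the mapped bases. The deposited TPM column is treated as a score and was not used, because reference genes and assembled loci each sum to nearly the usual total. Read counts are not among the columns, and no count test was run.

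Genes were read by their identifiers, and unlisted genes were given the value 0. Genes at 1 FPKM or more in any 3 libraries were tested. Each pair of stages was fitted on its 6 libraries with limma 3.58.1 (R 4.3.3) on log2(FPKM + 1), two-sided, with Benjamini-Hochberg adjustment over all tested genes. The stage pairs and thresholds follow the study. Ratios within a library were compared by exact permutation tests (SciPy 1.17.1), and the other steps used Matplotlib 3.10.9, pandas 2.3.3, NumPy 2.4.6 and Python 3.11.15. The fit was tested on simulated data. The reference table, of 57388 genes from a different durian assembly, matched 87.25% of identifiers and gave gene types only. It holds no product names, so further starch genes, seed markers and green tissue markers were not looked for.

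The genes named are the 4 starch genes, the 4 further genes of the study's starch tables and the genes most like each of the 4 by Pearson r. The ripening marker and 1 gene on the scaffold of the adenylyltransferase gene, chosen after its values were seen, are also named. The genes and lists were chosen with earlier results of these data known. Alternatives were other added values, no filter, size factors, 1 fit of all libraries, a variance trend, averaged MS libraries, a replicate block and leaving out each library. Rescaled coverage, and size factors without RS or YS library 03, were added after seeing the data.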

Additional observations from a re-analysis of the deposited data

How the results depend on the processing

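Of 192 results of the 4 starch genes under other settings, 171 kept their direction and side of the threshold, 14 lost a call, 5 gained one and 2 changed sign. With 5 added, MS against YS gave 0.93 for LOC111314672 and 1.34 for LOC111291600, and RS against MS -1.11 for LOC111291600, none called. With MS averaged to 1 sample, LOC111314672 (1.94), LOC111291600 (1.93) and LOC111316856 (2.40) lost the call in MS against YS, and LOC111291600 (-1.53) and LOC111316856 (-1.63) in RS against MS. In RS against MS, 0.1 added brought a call for LOC111314672 (-1.57) and LOC111305012 (4.04). Size factors ended the calls of LOC111291600 (-1.07) and LOC111316856 (-1.12) and gave 1.65 for LOC111305012. Size factors without RS library 03 gave -1.15, -1.18 and 1.51 for these genes. Leaving out 1 library, these ranged in RS against MS from -1.66 to -1.30, -1.84 to -1.33 and 1.33 to 1.55, and the calls changed only without RS library 03, which gave -1.30, -1.33 and 1.55. LOC111305012 ranged from -0.09 to 1.16 in RS against YS, below 0 without YS library 01 (-0.07) or 02 (-0.086).

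Leaving out 1 library, MS against YS ranged from -0.40 to 0.95 for LOC111306779 and from -1.32 to 0.39 for LOC111312611, and RS against YS from -0.30 to 1.41 for LOC111312611. In MS against YS, without YS library 03, LOC111306779 turned to -0.40 (with size factors -0.42) and LOC111312611 to 0.39 (with size factors 0.37). LOC111293942 in RS against MS was 0.0031 with size factors. LOC111312611 in RS against YS turned to -0.30 and -0.21 without YS library 01 or 02, and to -0.17 without RS library 01 or 02. The difference in the within-library log2 ratio, RS against MS, was -0.11 (0.1 added) and -0.45 (5 added) for the branching enzymes, and 5.70 and 1.95 for beta-amylase 3 over adenylyltransferase. The causes were not tested.

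Genes called higher and lower over all tested genes were 1172 and 2211 in MS against YS, 853 and 1136 in RS against MS, and 625 and 2022 in RS against YS. With 5 added they were 555 and 906, 437 and 403, and 341 and 583. With 0.1 added, 1773 were higher in MS against YS, and 1285 higher and 2122 lower in RS against MS. With averaged MS they were 301 and 627 in MS against YS and 127 and 58 in RS against MS. Without the filter RS against YS gave 317 and 665, and with size factors 1101 higher. Without RS library 03, RS against MS gave 1310 and 630 (with size factors 1427 and 465) and RS against YS 1002 lower (with size factors 883). Without YS library 02, RS against YS gave 1132 lower, and with size factors and without YS library 03, 999 higher.

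Libraries sharing a replicate number did not deviate together (r from -0.16 to 0.08, and 0 of 9 correlated best with their own number). With the replicate block the calls were 1197 and 2289, 899 and 1170, and 595 and 1695, and 12 of 12 results of the 4 starch genes kept their call. Without counts, counting error could not be computed, and values under 1 FPKM rest on few reads.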

Other observations

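LOC111316836, whose product the study leaves uncharacterized, lies on the same scaffold as the adenylyltransferase large subunit gene, 1.43 Mb before it, and was chosen after its values were seen. It had 10.8, 5.66 and 6.36 FPKM in YS libraries 01, 02 and 03, 36.4, 33.5 and 35.2 FPKM in MS, and 16.7, 7.35 and 5.29 FPKM in RS. All MS libraries lay above all YS and RS libraries, and YS and RS overlapped. MS lay above YS without overlap in 31.3% of tested genes, and RS below MS without overlap in 47.6%. The share of genes with both was not counted.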
